A study of Homo sapiens with 8 samples.

Results

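The MHC class II genes and CD74 were followed in L363 cells, an established human multiple myeloma line, during treatment with MLN120B, an inhibitor of the kinase IKKβ. The members were the array features that the platform annotation assigns to 1 of 9 listed genes and that held values on at least 6 of the 8 arrays. This gave 34 features of 8 genes, out of 49 features annotated to these genes and 14771 features with any value on the arrays. CD74 had 9 features, HLA-DQA1 had 5, HLA-DRA, HLA-DQB1 and HLA-DMB had 4 each, HLA-DRB1 and HLA-DPA1 had 3 each, and HLA-DPB1 had 2. No feature was annotated to HLA-DMA, and 5073 features of the table have no gene listed. The 2 features with exactly 6 values, both of HLA-DMB, averaged -0.33 and -0.12 over their arrays, and the 8 with 5 values, left out by the rule, averaged between -0.84 and 0.11.

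On each of 8 2-colour arrays, cDNA of cells given 12.5 µM MLN120B at 37 °C carried Cy5 and cDNA of cells given the solvent DMSO carried Cy3, per the labels. Treatment lasted 8 h on 2 arrays, 12 h on 3 arrays and 24 h on 3 arrays, and all samples came from the same cell line. Values are log2 ratios, likely MLN120B over DMSO, minus the median of the array. A negative value thus means a lower ratio than that of the median feature of the array. The direction is not stated by the labels; if it were turned, every sign below would turn with it. The labels do not say whether samples of the same time were separate cultures; the p-values below reflect the spread among the samples, which may be technical.

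The arrays differed in spread in a way that bears on each result. Database identifiers in the labels form 3 stretches of close numbers, named database runs below, with neighbours at most 2 apart inside a stretch. Sample 3 at 12 h and sample 3 at 24 h make up run 1. To run 2 belong sample 1 at 12 h and 24 h together with sample 2 at 8 h, and to run 3 sample 2 at 12 h and 24 h together with sample 1 at 8 h. The SD over all features was 1.00 to 1.42 on run 2, 0.35 and 0.58 on run 1, and 0.21 to 0.28 on run 3, and features with a value numbered 6344 to 13007 an array. Pearson's r over rows was 0.10 to 0.61 for the 7 pairs of arrays within a run, and -0.08 to 0.23 for the 7 pairs within a time; rows are not independent replicates. Members are therefore given as values on every array and, at the level of features, also as percentiles within each array.

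MHC class II molecules are pairs of an α and a β chain that show peptides from the endosomal pathway to CD4+ T cells. HLA-DR, HLA-DP and HLA-DQ are the 3 classical pairs. CD74, the invariant chain, escorts new class II molecules out of the endoplasmic reticulum and fills their peptide groove until it is degraded, and HLA-DM (HLA-DMA with HLA-DMB) then exchanges the remaining fragment for peptide. Transcription of all these genes depends on the coactivator CIITA, which is recruited to a shared promoter module by the RFX complex on the X box and by NF-Y on the Y box. Plasma cells normally silence CIITA through PRDM1 (BLIMP1). IKKβ is the kinase that releases NF-κB from its inhibitors, and CD74 is also a known NF-κB target and a signalling receptor for MIF.

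The promoters were searched for short words of this module and for a κB word. RefSeq windows from 250 bases before to 50 bases after the annotated start (GRCh38.p14) were given for 8 of the 9 listed genes. HLA-DRA had none, and HLA-DPA1 had 2 starts. The 250 bases before the start are printed 5′ to 3′ on the gene's strand, with 3 kinds of word in capitals on either strand: an X box word (AGNAACNGA or ACNGATGA, which overlap in the letters ACNGA), a Y box word (ATTGG) and a κB word (GGG, any 2 bases, then TTTCC). The windows are chr5:150412911-150413160 (minus strand) for CD74, chr6:32589849-32590098 (minus strand) for HLA-DRB1, chr6:32637156-32637405 (plus strand) for HLA-DQA1 and chr6:33073650-33073899 (minus strand) for the downstream start of HLA-DPA1.
CD74: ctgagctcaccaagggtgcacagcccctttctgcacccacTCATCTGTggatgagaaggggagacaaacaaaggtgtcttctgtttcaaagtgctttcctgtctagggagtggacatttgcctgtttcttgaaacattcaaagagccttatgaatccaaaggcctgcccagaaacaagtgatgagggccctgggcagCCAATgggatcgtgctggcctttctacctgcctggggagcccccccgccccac
HLA-DRB1: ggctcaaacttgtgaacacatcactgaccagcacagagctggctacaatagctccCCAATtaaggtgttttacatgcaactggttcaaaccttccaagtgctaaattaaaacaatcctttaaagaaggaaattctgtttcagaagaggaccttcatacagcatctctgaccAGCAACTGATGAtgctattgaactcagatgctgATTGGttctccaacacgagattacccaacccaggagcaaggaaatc
HLA-DQA1: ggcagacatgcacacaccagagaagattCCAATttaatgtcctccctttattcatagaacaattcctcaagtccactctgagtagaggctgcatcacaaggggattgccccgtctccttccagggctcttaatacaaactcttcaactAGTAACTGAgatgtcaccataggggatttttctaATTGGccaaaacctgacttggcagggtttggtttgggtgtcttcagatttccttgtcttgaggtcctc
HLA-DPA1: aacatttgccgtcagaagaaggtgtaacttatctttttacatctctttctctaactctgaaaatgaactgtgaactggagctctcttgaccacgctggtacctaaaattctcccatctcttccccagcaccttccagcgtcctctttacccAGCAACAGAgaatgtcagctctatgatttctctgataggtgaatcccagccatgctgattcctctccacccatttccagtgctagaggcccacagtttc

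HLA-DRB1 and HLA-DQA1 have an X box word followed by ATTGG on the gene strand. In HLA-DRB1 the 2 overlapping X words run from position -79 to -68 and ATTGG from -46 to -42, counted from the start at 0, and in HLA-DQA1 the words run from -102 to -94 and from -68 to -64. The same order within 40 bases occurred in HLA-DQB1 and HLA-DMA, so in 4 of the 9 windows, against 0.1253% of 35116 RefSeq promoters of the same length. CD74 has both words on the other strand, the X word from -210 to -203 and the Y word from -53 to -49. It is the 1 of 9 windows with the κB word, which runs from 34 to 43 and so lies outside the printed stretch. That word is in 1.911% of promoters, either X word in 6.513% (7 of 9 windows) and ATTGG in 34.61% (7 of 9 windows). HLA-DPA1 has an X word at its downstream start and no ATTGG in the window. The words were chosen with these promoters in view, and a match of letters is a description, not a site of binding. Only exact matches were counted, so a box that differs from the words is not marked.

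**Figure D1:**
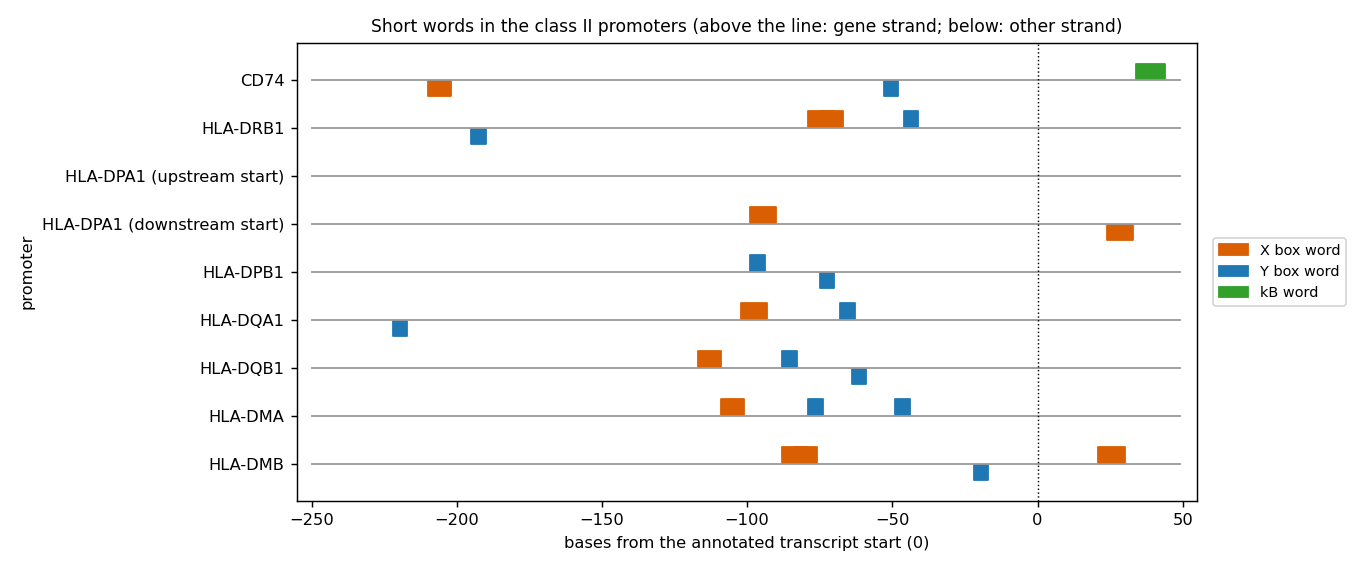
Positions of the searched words in the 9 RefSeq promoter windows of class II genes and CD74, in bases from the annotated start. Boxes above a line are on the gene strand and boxes below it on the other strand; HLA-DRB1, HLA-DQA1, HLA-DQB1 and HLA-DMA show an X word (orange) followed by a Y word (blue) on the gene strand, and CD74 alone shows the κB word (green).

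The value of a gene on an array is the average of all its annotated features with a value there, including those with under 6 values: up to 12 for CD74, 7 for HLA-DRB1 and HLA-DMB, 6 for HLA-DQA1, 5 for HLA-DRA and 4 for HLA-DPA1, HLA-DPB1 and HLA-DQB1. With the 34 member features alone the median of the genes was -0.59 at 24 h, -0.47 at 12 h and -0.11 at 8 h, against -0.58, -0.48 and -0.02 with all annotated features.

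After 24 h with MLN120B, all 8 measured genes lay below the array median on each of the 3 arrays, as did 14.0% of the rows with a value on every array at 24 h. In RNA of whole cultures, fewer cells of a kind and less RNA per cell cannot be told apart. HLA-DRA and CD74 had the lowest mean log2 ratios over the 3 arrays, -1.20 ± 0.31 and -1.01 ± 0.38, followed by HLA-DRB1 at -0.76 ± 0.24. Here and below, ± gives the SE of the limma fit, which pools the spread over the 3 times. It is not the SE of the values at 1 time: the SD of HLA-DQB1 was 0.21 at 24 h and 1.71 at 8 h. HLA-DMB and HLA-DQA1 both averaged -0.58, HLA-DPA1 -0.57, HLA-DQB1 -0.49 and HLA-DPB1 -0.31, with SEs between 0.21 and 0.38. Without sample 1 at 24 h CD74 was at -0.62, HLA-DRB1 at -0.44 and HLA-DPB1 at -0.12. At 8 h 4 of the 8 genes had a mean below 0, against 50.2% of all rows, and their median was -0.02, against -0.58 at 24 h. The means of all 8 genes were below 0 at 24 h and at 12 h, against 53.6% and 50.5% of rows. No gene passed the test: in limma the adjusted p was 0.9996 for every member at 24 h, and 0 of 5411 rows (0%) passed at any time. An unadjusted p under 0.05 was found for 2.40% of rows at 8 h, 3.07% at 12 h and 2.01% at 24 h. At 24 h 6 members had one, each with a negative ratio, as did 80 of 5411 rows (1.48%). At 8 h 1 member had one, HLA-DQB1, with a positive ratio.

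**Figure D2:**
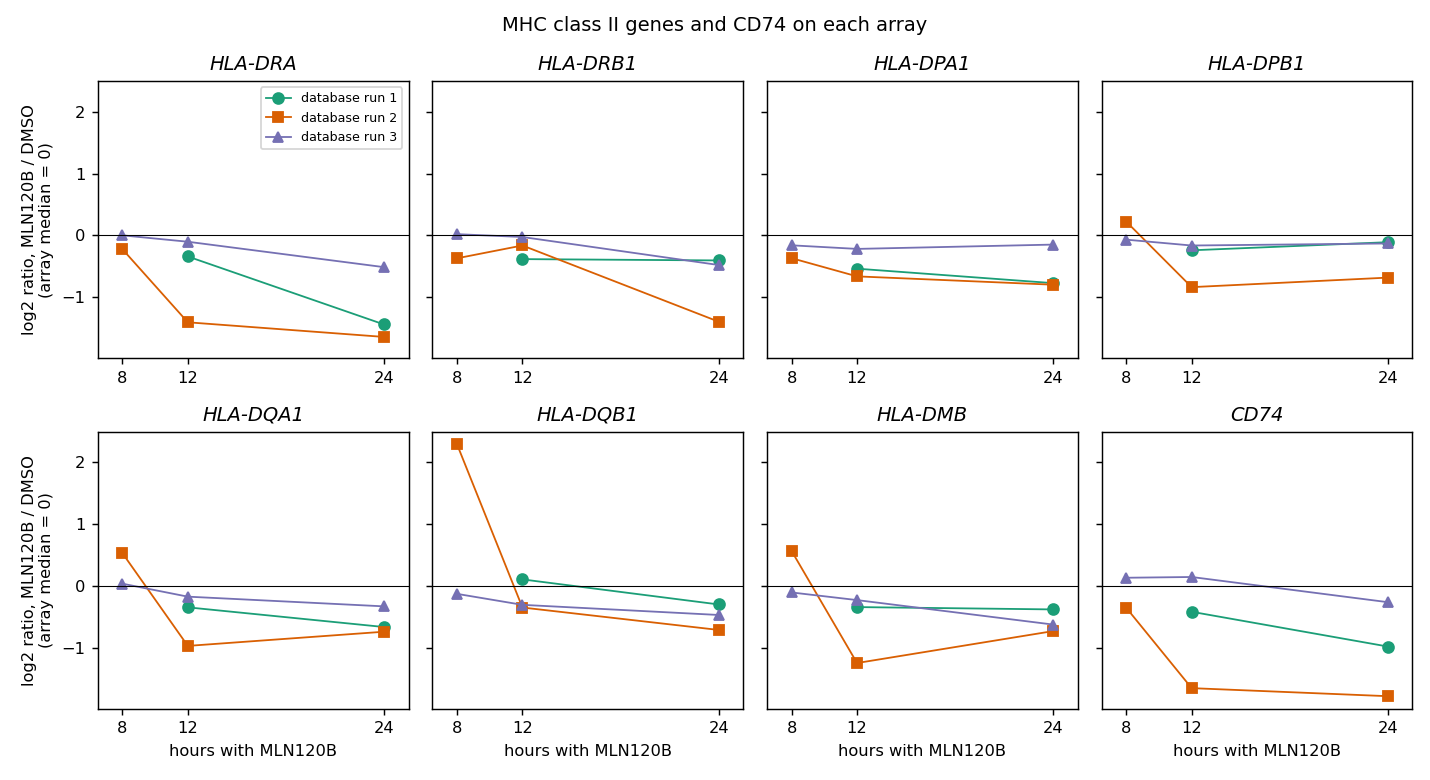
Log2 ratio of MLN120B over DMSO (array median at 0) of the 8 measured genes on each of the 8 arrays, against hours with MLN120B; lines join arrays of 1 database run. At 24 h all points lie below 0 in all 8 panels, those of run 3 (triangles) nearer to 0 than those of run 2 (squares) in each, and HLA-DQB1 reaches 2.29 on 1 array at 8 h.

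HLA-DRA encodes the nearly invariant α chain of HLA-DR. Its log2 ratio was 0.002 and -0.22 at 8 h, -1.40, -0.10 and -0.34 at 12 h, and -1.64, -0.51 and -1.44 at 24 h, for samples in order of their number. All values at 24 h lay below all values at 8 h, as in 8.95% of rows with all 3 values at 24 h. Values at 12 h overlapped both times. The unadjusted p at 24 h was 0.0037, rank 12 of 5411, with an adjusted p of 0.9996 in limma. Between 24 h and 8 h the difference was -1.09 ± 0.48 (SE, limma adjusted p = 0.987), with -1.42 within run 2 and -0.51 within run 3. Of its 4 features, 2 lay below 0 on all 8 arrays, a share not counted over all features.

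HLA-DRB1, the polymorphic β chain of HLA-DR, had log2 ratios of 0.02 and -0.37 at 8 h, -0.16, -0.03 and -0.38 at 12 h, and -1.39, -0.48 and -0.40 at 24 h. The 3 values at 24 h lay below every earlier value, by 0.02 for the highest of them. It was the only member whose values at 24 h all lay below those at 12 h, which 4.60% of rows with 8 values showed. Other DRB genes have closely similar sequence and no feature of their own was annotated on this array, so signal from them cannot be told apart from that of HLA-DRB1.

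HLA-DPA1, the α chain of HLA-DP, was the only member gene below 0 on all 8 arrays, which 1.30% of the 3460 rows with 8 values showed. Its log2 ratio was -0.16 and -0.37 at 8 h, -0.66, -0.22 and -0.54 at 12 h, and -0.80, -0.15 and -0.77 at 24 h. The 3 times overlapped, and the difference of 24 h from 8 h was 0.01 within run 3 and -0.43 within run 2. Averaged over the 3 times the ratio was -0.44 ± 0.13 (SE, limma adjusted p = 0.869). Its partner HLA-DPB1 ranged from -0.07 to 0.22 at 8 h, from -0.84 to -0.16 at 12 h and from -0.68 to -0.11 at 24 h. These HLA-DPB1 values average 4 annotated features, of which 2 are members by the rule. With the member features alone its mean was -0.27 at 12 h, against -0.41, and the difference of 24 h from 8 h was -0.20, against -0.38. Of these 2, 1 lay above 0 on 2 of the arrays at 24 h, at 0.08 and 0.06, so the features disagree.

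HLA-DQA1, the α chain of HLA-DQ, was above 0 on both arrays at 8 h and below 0 on all later ones. It was the only member gene to do so, and the share of all rows that did was not counted. Its log2 ratio was 0.04 and 0.53 at 8 h, -0.97, -0.17 and -0.34 at 12 h, and -0.74, -0.33 and -0.66 at 24 h. The difference of 24 h from 8 h was -0.86 ± 0.36 (SE, unadjusted p = 0.040, limma adjusted p = 0.987), with -1.27 within run 2 and -0.37 within run 3. The value of 0.53 includes a feature that is no member, with values on 3 arrays and 2.32 on sample 2 at 8 h. Of the member features, 2 of 4 were below 0 on that array and 3 of 5 on sample 1 at 8 h. With member features alone the difference of 24 h from 8 h was -0.64 (unadjusted p = 0.097 in limma). HLA-DQB1, its β chain partner, had -0.13 and 2.29 at 8 h, -0.35, -0.30 and 0.11 at 12 h, and -0.71, -0.47 and -0.30 at 24 h. The value of 2.29 rests on 1 of its 4 features, which read 8.69 on sample 2 at 8 h. With the median of the features in place of their mean, chosen after seeing the data, the HLA-DQB1 difference of 24 h from 8 h was -0.62, against -1.57 ± 0.61 (SE, limma adjusted p = 0.987) with the mean. Without sample 2 at 8 h it was -0.36.

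HLA-DMB, the β chain of the peptide exchange factor HLA-DM, had log2 ratios of -0.10 and 0.57 at 8 h, -1.24, -0.23 and -0.34 at 12 h, and -0.73, -0.62 and -0.38 at 24 h. All later values lay below both values at 8 h, and 12 h and 24 h overlapped. The share of all rows with both later times below 8 h was not counted. The value of 0.57 includes a feature that is no member, with values on 2 arrays and 1.42 on sample 2 at 8 h. The member features had a median of 0.33 on that array. It was the 1 of 8 members with an unadjusted p under 0.05 at 12 h (-0.60 ± 0.25, SE, limma adjusted p = 0.929), where 98 of 5411 rows had such a p with a negative ratio (1.81%). Without sample 1 at 12 h that value was -0.28 (unadjusted p = 0.27 in limma), and with array weights it was -0.31 (unadjusted p = 0.11 in limma). HLA-DOB, a chain of the HLA-DM modulator HLA-DO and the only other class II chain with values (1 of 7 listed), was not tested. It had 0.39 and -0.34 at 8 h, 1.15, 0.17 and -0.09 at 12 h and a single value of -0.15 at 24 h.

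CD74 had the most features. Its log2 ratio, over its 12 annotated features, was 0.13 and -0.35 at 8 h, -1.65, 0.15 and -0.41 at 12 h, and -1.78, -0.26 and -0.98 at 24 h. Values at 24 h were all negative, but the highest of them lay above the lower value at 8 h, so the times overlapped. Sample 2 at 12 h was above 0 in 8 of the 9 member features, with a median of 0.20 and an SD of 0.12, and so was sample 1 at 8 h, of the same run 3, with a median of 0.20 and an SD of 0.13. All 9 member features were below 0 on every array at 24 h, ranging from -2.56 to -1.06 on sample 1, from -0.52 to -0.09 on sample 2 and from -1.20 to -0.89 on sample 3. The SD between features was 0.63, 0.16 and 0.10 on these arrays, and that between the arrays 0.76.

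The percentile of a feature within its own array does not depend on the width of that array. On the arrays at 24 h, 10 of 33, 18 of 32 and 23 of 34 member features were among the lowest 10% of the array (samples 1, 2 and 3), where 10.4%, 9.66% and 8.50% of all features with at least 6 values were. The median percentiles of the member features were 15.2, 7.48 and 1.82. At 8 h, 1 of 33 and 2 of 33 were in the lowest 10%, against 6.33% and 10.2% of all such features, with median percentiles of 47.0 and 42.6. The arrays at 12 h differed among themselves: 12 of 33, 7 of 34 and 0 of 34, against 10.9%, 7.47% and 5.87%, with median percentiles of 15.8, 28.4 and 25.3. Features of 1 gene share their target, so these counts are not over independent measurements.

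**Figure D3:**
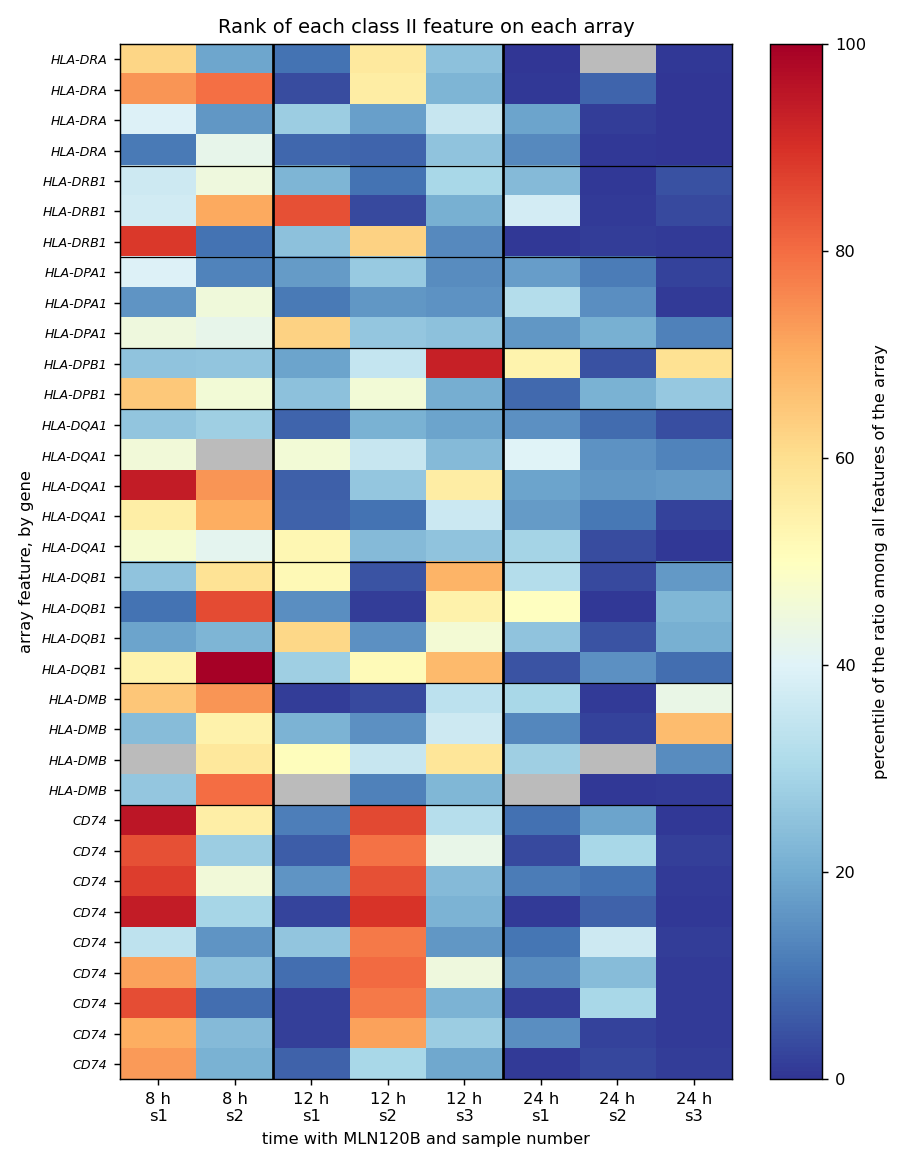
Percentile of each of the 34 member features (rows, by gene) among all features with a value on each of the 8 arrays (columns, in order of time); grey marks no value. The 3 columns at 24 h are mostly low, with median percentiles of 15.2, 7.48 and 1.82, and the 2 columns at 8 h lie around the middle, at 47.0 and 42.6.

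Of the 31 member features with all values at 24 h, 29 were below 0 on the 3 arrays, against 14.2% of all features with at least 6 values and 3 at that time. The exceptions were 1 feature of HLA-DPB1 and 1 of HLA-DMB. At 8 h 11 of 32 were below 0 on both arrays, against 22.6%. Of the 30 with 8 values, 6 were below 0 on every array: 2 of HLA-DRA, 1 of HLA-DRB1, 2 of HLA-DPA1 and 1 of HLA-DQA1. The share of all features that did so was not counted, and among gene rows with 8 values it was 1.30%.

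The order of the times was 24 h below 12 h below 8 h in the means of CD74, HLA-DRA, HLA-DRB1, HLA-DPA1, HLA-DQA1 and HLA-DQB1. In HLA-DPB1 and HLA-DMB the mean at 12 h was the lowest, but with member features alone HLA-DPB1 was at -0.36 at 24 h and -0.27 at 12 h, and HLA-DMB at -0.57 at both. In 6 members, values at 24 h lay below all values at 8 h, the exceptions being CD74 and HLA-DPA1, and 8.95% of rows with all 3 values at 24 h did so. With member features alone HLA-DPB1 overlapped too, at -0.02 and -0.28 at 8 h and -0.68, -0.32 and -0.06 at 24 h. Within each of the 2 database runs that hold both times, 24 h was below 8 h in 7 of 8 members, HLA-DPA1 being the exception, against 35.0% of rows. The median difference of the members was -0.83, against -0.04 over all rows, and 8 of 8 lay below 0, against 54.1% of rows. HLA-DQA1 and HLA-DQB1 had an unadjusted p under 0.05 here, as did 0.813% of rows, 0.462% with a negative difference, and none passed the adjusted test. With member features alone the unadjusted p of HLA-DQA1 was 0.097 in limma.

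Between 24 h and 12 h the median difference of the members was -0.20, with 6 of 8 below 0, against 51.7% of rows. The values of the 2 times overlapped in all members but HLA-DRB1. CD74, HLA-DRA, HLA-DRB1 and HLA-DQB1 were lower at 24 h than at 12 h within all 3 runs, as were 20.1% of rows. Leaving out sample 2 at 12 h or sample 1 at 24 h turned the median positive, to 0.03 and 0.01 in that order, so no order of the 2 later times holds for the members together. At 12 h 6 of 8 members were below 0 on every array, against 9.52% of rows; the exceptions were CD74 and HLA-DQB1. The same 6 were below 0 on all 6 arrays at 12 h and 24 h, against 3.32% of rows with 8 values. With member features alone HLA-DPB1 was at 0.08 on sample 3 at 12 h, and would drop out of both counts. At 8 h 1 of 8, HLA-DPA1, was below 0 on both arrays, against 21.9% of rows. The median at 12 h was -0.48 and became -0.21 without sample 1 at 12 h.

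Over the 3 times together, 7 of 8 members averaged below 0, against 51.6% of rows, with a median of -0.34 against -0.01. HLA-DRA averaged -0.64 ± 0.19 (SE), CD74 -0.58 ± 0.23, HLA-DPA1 -0.44 ± 0.13 and HLA-DRB1 -0.37 ± 0.15. These 4 had an unadjusted p under 0.05, as did 3.40% of rows, 1.72% with a negative mean, and their limma adjusted p was 0.869. HLA-DQB1 averaged 0.14 ± 0.24, and -0.27 without sample 2 at 8 h. The averages of CD74 were -0.70 for run 1, -1.26 for run 2 and 0.01 for run 3, and those of HLA-DRA were -0.89, -1.09 and -0.20 in the same order.

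The regulators of class II transcription were taken from a list of 14 genes, of which 11 were measured and 10 tested. None passed the limma test in either direction (2 had an unadjusted p under 0.05, RFX5 and PRDM1), with 7 averaging below 0 and 3 above, and the median was -0.14 over the 3 times and -0.08 at 24 h. CIITA, the master coactivator, was read by 11 features. Its log2 ratio was -0.12 and 0.78 at 8 h, -1.05, -0.35 and -0.92 at 12 h, and 0.24, -0.12 and -0.27 at 24 h. CIITA was thus below 0 on all arrays at 12 h and on both sides of 0 at 24 h, with a mean there of -0.05 ± 0.25 (SE of the limma fit).

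RFX5, the DNA-binding subunit of the RFX complex, had 0.11 and -0.86 at 8 h, -0.63, -0.09 and -0.26 at 12 h, and -0.78, -0.36 and -0.34 at 24 h. It was below 0 on 7 of 8 arrays and averaged -0.40 ± 0.15 (SE, limma adjusted p = 0.869). Its partners RFXANK and RFXAP averaged -0.23 ± 0.13 and 0.09 ± 0.18. Of NF-Y, the subunit NFYA averaged -0.39 ± 0.38 on 6 arrays and NFYC 0.06 ± 0.12. PRDM1, the repressor of CIITA in plasma cells, was above 0 on all 8 arrays, as were 1.39% of rows with 8 values, at 0.04 and 0.35 at 8 h, 0.31, 0.34 and 0.72 at 12 h, and 0.23, 0.28 and 0.38 at 24 h. Its average was 0.32 ± 0.12 (SE, limma adjusted p = 0.869). IRF2, SPI1 and POU2AF1 (the B-cell coactivator OCA-B) averaged -0.12 ± 0.15, -0.29 ± 0.20 and -0.12 ± 0.21. IRF1 had values on 5 arrays and was not tested, at -0.25 and -2.70 at 8 h, -0.20 on 1 array at 12 h, and 0.24 and 0.12 on 2 arrays at 24 h. Most of these averages moved by over 1.5 times when 1 array was left out. Without sample 2 at 8 h RFX5 was at -0.24, NFYA at 0.10 and RFXAP at -0.12, and without sample 1 at 12 h SPI1 was at -0.11 and IRF2 at -0.03. POU2AF1 was at 0.05 without sample 3 at 12 h, and NFYC at 0.02 without sample 1 at 8 h. PRDM1 stayed between 0.27 and 0.37 and RFXANK between -0.30 and -0.17.

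Genes that act with the class II molecules lay on both sides of 0. Of 16 listed genes of endosomal proteolysis and class II handling, 10 were tested, 6 averaged above 0 and 4 below, and the median was 0.07 over the 3 times and 0.15 at 24 h; 0 passed. LAMP1, a lysosomal membrane protein, averaged 0.33 ± 0.19, and CTSL, a cathepsin that degrades CD74 in some cells, 0.30 ± 0.13; LAMP1 was at 0.18 without sample 1 at 24 h. Of the 5 ligands and receptor partners of CD74, all tested, 3 averaged below 0 and 0 passed, with a median of -0.05. CXCR4 averaged -0.21 ± 0.12 and CD44 0.17 ± 0.13 over the 3 times, with CD44 at 0.09 without sample 1 at 12 h. CXCR4 lay at -0.48, -0.35 and -0.61 at 24 h.

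MHC class I presentation was listed by 13 genes, of which 8 were tested and 0 passed, with 5 below 0 and a median of -0.09 at 24 h. On the 3 arrays at 24 h the class I median was -0.17, -0.13 and -0.03, where that of the class II members was -0.77, -0.40 and -0.53. HLA-G and PSMB9, a subunit of the immunoproteasome, had the largest averages of that list, -0.86 ± 0.38 and -0.50 ± 0.24. On the 3 arrays of run 2 HLA-G had -2.22, -3.04 and -1.17, by time, and on the other arrays -0.19 to 0.10. Its average was -0.47 without sample 2 at 8 h and -0.53 without sample 1 at 12 h. PSMB9 had -2.21 on sample 1 at 24 h and averaged -0.29 without it. Among 8 listed genes of B-cell costimulation and adhesion, 6 were tested and 0 passed, and the median was -0.08 over the 3 times. CD70 averaged -0.94 ± 0.39 on 7 arrays and ICAM1 -0.28 ± 0.21. CD70 had -3.13 and -2.53 on the run 2 arrays at 8 h and 12 h, and averaged -0.45 without sample 2 at 8 h and -1.43 without sample 1 at 8 h. ICAM1 averaged -0.12 without sample 1 at 12 h, -0.11 without sample 1 at 8 h and -0.44 without sample 2 at 8 h.

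**Figure D4:**
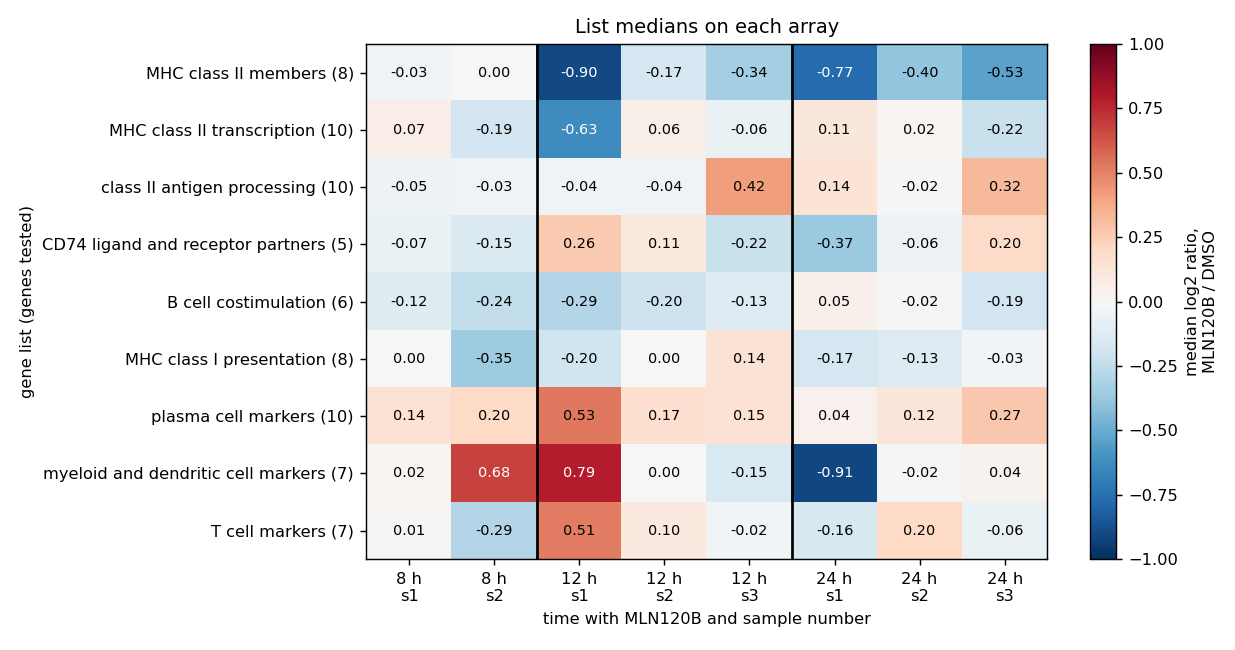
Median log2 ratio of MLN120B over DMSO of each gene list (rows) on each of the 8 arrays (columns, in order of time). Medians are over the tested genes of the list with a value on that array. The class II members are at -0.77, -0.40 and -0.53 on the arrays at 24 h and at -0.03 and 0.001 at 8 h.

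Markers of cell types were read beside these values. The plasma cell markers, which fit the labelled cell type, were measured for 10 of 10 genes, and their median ratio was 0.25 over the 3 times. The largest averages were those of TNFRSF17, the receptor BCMA, at 0.48 ± 0.16, and SLAMF7 at -0.46 ± 0.27. Without sample 2 at 8 h they were at 0.29 and -0.21; SLAMF7 was at -0.27 without sample 1 at 12 h and at -0.71 without sample 1 at 8 h. A ratio cannot show whether a marker is expressed, and no signal intensities were used here. Of 10 myeloid and dendritic cell markers, which mark other cells with class II, 7 were tested and 0 passed, and 7 of 7 had a negative difference of 24 h from 8 h, with a median of -0.45. Their median on the arrays at 24 h was -0.91 on sample 1, -0.02 on sample 2 and 0.04 on sample 3. The class II members were at -0.77, -0.40 and -0.53 on these arrays. The marker median on sample 1 leaves out CD14, ITGAX and CD1C, which had no value there. The part of the myeloid and dendritic cell markers in the value of sample 1 was not tested. CD1C averaged 0.81 ± 0.36 on 6 arrays and CD68 -0.50 ± 0.29. CD68 had -2.63 on sample 1 at 12 h and averaged -0.22 without it. T cell markers, 7 of 9 tested with 0 passing, had medians of -0.16, 0.20 and -0.06 on the arrays at 24 h. CD3G, CD5 and TRAT1 had no value on sample 1 at 24 h. CD3D and CD3E averaged -0.62 ± 0.48 and -0.60 ± 0.34, but 0.29 and 0.017 without sample 2 at 8 h.

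The likeness of patterns over the 8 arrays was described by Pearson's r and Spearman's rho on ratios divided by the SD of each array, among 2285 named genes with 8 values. The arrays share runs and times, so these values carry no p. Outside the members, the genes most like CD74 were PPP2R5A (r 0.97, rho 0.98), ZYG11B (0.94, 0.98), FRMD6 (0.93, 1), FMR1 (0.93, 0.81) and NUP160 (0.90, 0.88). Those most like HLA-DRA were RUNX3 (r 0.96, rho 0.79), TNFAIP3 (0.95, 0.86), FRMD6 (0.93, 0.90), SEPTIN11 (0.93, 1) and CEP55 (0.93, 0.90). Among the members, HLA-DRA ranked 10 by r in likeness to CD74 (0.89), then HLA-DQA1 (0.76, rank 69), HLA-DRB1 (0.67, rank 150) and HLA-DPA1 (0.60, rank 207). HLA-DMB, HLA-DPB1 and HLA-DQB1 had lower r, at 0.29, 0.13 and 0.13 (ranks 672, 931 and 935). The order by rho differed. It was 0.90 for HLA-DRA, 0.79 for HLA-DQA1, 0.71 for HLA-DRB1 and 0.60 for HLA-DMB. HLA-DPA1, HLA-DQB1 and HLA-DPB1 had a rho of 0.26, 0.19 and 0.17. HLA-DQA1 ranked 9 in likeness to HLA-DRA (r 0.90). TNFAIP3, the NF-κB inhibitor A20, had 24 h values of -1.64, -0.54 and -1.43, beside -1.64, -0.51 and -1.44 for HLA-DRA. The earlier values were less alike. At 8 h TNFAIP3 had -0.10 and -0.65, beside 0.002 and -0.22 for HLA-DRA. At 12 h it had -1.52, -0.37 and -0.97, beside -1.40, -0.10 and -0.34. RUNX3, with the highest r, had 24 h values of -0.38, -0.17 and -0.49.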

How the data were processed

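RNA of L363 cells was measured on 8 2-colour spotted arrays, extracted with TRIzol per the labels' protocols. What the authors deposited for each array is a column taken here as log2 ratios of both channels. Base 2 was inferred: a size of 12.4, reached only by sample 2 at 8 h, is too large for other common bases. Elsewhere sizes end between 1.93 and 10.8, so a base shared by all arrays is an assumption. Background correction, spot filter and normalization were not given in the sources used here. Dyes were never swapped, so dye bias and treatment cannot be told apart. Signal over background is unknown for want of intensities. Precision is limited by the number of arrays.

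From these values each array was centred on its median (deposited medians -0.48 to 0.001). The platform annotation gave a gene for all but 5073 features (4 with several); 10128 symbols were updated through Entrez identifiers and 17 through accessions, and 24 were kept. For each gene and array, the features with a value there were averaged. Testing required values on 2 or more arrays at each time, which left 5411 rows with 3311 named genes, 3460 of them with 8 values. A mean for each time was fitted with limma 3.58.1 in R 4.3.3 (lmFit, eBayes, 5 residual degrees of freedom) and tested against 0. Each ratio holds a DMSO sample, so the spread of DMSO and of MLN120B samples cannot be told apart. If arrays shared a DMSO sample, its spread is not counted. Tests were 2-sided and adjusted by Benjamini-Hochberg over all rows, with a threshold of 0.05. The fit was tried on simulated data in which a gene had the same SD on all arrays. That trial cannot show how the p-values behave with arrays of such different spread. Promoter words were searched, and tables and plots made, with Python 3.11.15, pandas 2.3.3 and matplotlib 3.10.9. Promoters come from RefSeq tables of GRCh38.p14.

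Members, lists and rules were chosen with earlier results of these data known. Named genes were all members, all measured class II regulators, and the 2 genes of every other list with the largest average, since none passed; likeness took the 5 genes with the highest r. CXCR4 and TNFAIP3 at 24 h, and the promoter words, were singled out after their values were seen. Sample numbers were checked for pairing: deviations of same-numbered samples at 12 h and 24 h correlated at 0.20 to 0.29 (3 pairs, which also share a database run), those of 8 h with later times at -0.32 to -0.15 (4 pairs). Number and run coincide at 12 h and 24 h, so pairing by number and a shared run cannot be told apart there. At 8 h, where they differ, pairs of the same run correlated at 0.15 to 0.32. With 2 arrays at 8 h these values mirror those of the same number. Alternatives were no centring, quantile and scale normalization, other filters, features apart or by their median, sample number or database run as a block, array weights, robust variances, run 2 left out and each array left out.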

Additional observations from a re-analysis of the deposited data

Results flagged for a closer look

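Both arrays at 8 h lay above 0 and all later arrays below 0 for 1 member gene, HLA-DQA1. The share of all rows with this turn of sign was not counted. The log2 ratios of HLA-DQA1 differed by -0.78 between 12 h and 8 h (limma adjusted p = 0.992) and by -0.86 between 24 h and 8 h (limma adjusted p = 0.987), so neither difference passed. With member features alone the difference of 24 h from 8 h was -0.64.

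The same turn of sign was seen between 24 h and 8 h in single features, with differences of -1.14 for 1 of CD74, -1.94 for 1 of HLA-DRA, -0.89 and -0.93 for 2 of HLA-DQA1, -0.69 for 1 of HLA-DMB and -5.16 for 1 of HLA-DQB1. Between 12 h and 8 h it was seen in 1 feature of HLA-DQA1, at -0.92, and in the same HLA-DMB feature, at -1.49. The HLA-DQB1 value rests on 8.69 on sample 2 at 8 h, the array with the widest spread (SD 1.42). In a limma fit over single features the adjusted p was 0.973 for each difference of 24 h from 8 h and 0.993 for each of 12 h from 8 h. The share of all features with this turn of sign was not counted.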

How the results depend on the processing

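No alternative moved a member past the threshold except leaving out sample 1 at 8 h. The median of the members at 24 h (-0.58) stayed below 0 under all 22 alternatives, from -0.83 with quantile normalization to -0.48. That of the average over the 3 times (-0.34) ran from -0.47 to -0.22. For 24 h against 8 h (-0.83) it was -0.63 with array weights, -0.43 without database run 2, and -0.88 to -0.54 when 1 array at a time was left out. The median at 8 h (-0.02) had no stable sign: 0.063 with the run as a fixed block, 0.017 with it as a random block, -0.084 for features on their own, -0.11 for averages of features with at least 6 values, -0.063 as deposited. The replicate block on sample number gave 0.063 there and changed no other call, apart from the sign of NFYA (0.10). Values as deposited shift the median of all rows to -0.12 for the average and -0.13 at 24 h.

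Rows called, 0 in limma, became 1 higher and 4 lower (12 h against 8 h), 3 lower (24 h against 8 h), 6 higher and 4 lower (8 h) and 2 higher (average) with 1 array at each time allowed. With arrays scaled to 1 SD they were 2 lower at 24 h and 1 lower for the average, with quantile normalization 2 lower and 2 lower, and with the run as a fixed block 1 higher and 2 lower for the average. With 1 array left out, members called ranged from 0 to 1 for 8 h, 12 h against 8 h and 24 h against 8 h. Rows called ranged from 0 to 85 higher and 0 to 46 lower at 8 h, from 0 to 25 and 0 to 53 for 12 h against 8 h, from 0 to 27 and 0 to 50 for 24 h against 8 h, and from 0 to 39 and 0 to 19 for the average. Every upper end comes from leaving out sample 1 at 8 h, where sample 2, the widest array, stands alone for 8 h and is assumed to vary like the others. For 24 h against 8 h the member called was HLA-DQB1 (-2.78, limma adjusted p = 0.014; 0.541 to 0.9998 under the other alternatives). The averages of CD3D and CD3E also passed without that sample (limma adjusted p = 0.0045 and 0.014).

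Averages over the 3 times that changed sign were as follows; the cause was not tested. HLA-DQB1 was -0.15 with scaled arrays, -0.13 with the median of its features, -0.28 with quantile normalization and -0.20 without run 2. With scaled arrays CD3D was 0.034, IRF2 0.011, NFYA 0.038 and RFXAP -0.018. Without run 2 CD3D was 0.30, CD3E 0.018, IRF2 0.096, NFYA 0.10, RFXAP -0.062 and SLAMF7 0.12. CD3D was 0.027 with quantile normalization, CD3E 0.16 with features of at least 6 values, IRF2 0.0016 with array weights, NFYC -0.010 with the median of its features and -0.066 as deposited, and RFXAP -0.039 as deposited. With 1 array left out the ranges were -0.27 to 0.54 for HLA-DQB1, -1.52 to 0.29 for CD3D, -1.22 to 0.017 for CD3E, -0.89 to 0.10 for NFYA, -0.21 to 0.054 for POU2AF1 and -0.12 to 0.30 for RFXAP.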
